A study of Mus musculus with 23 samples.

Results

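The airway goblet cell mucus programme was examined in whole lung as a set of 10 genes chosen by symbol: Clca1, Muc5ac, Muc5b, Agr2, Spdef, Foxa3, Fcgbp, Tff2, Gcnt3 and Foxa2. All 10 were among the 35322 genes of the table, and all 10 passed the filter on low values that left 16795 genes for testing. The tissue was lung (RML in the labels, right lower lobe in the methods) of 13-week-old female Balb/c offspring, from dams given PM2.5 or saline by the nose before mating and through to weaning. The Sham and PM offspring (7 libraries each) received saline or PBS in place of allergen. The Sham-OVA (5 libraries) and PM-OVA (4 libraries) offspring were sensitised to ovalbumin (OVA) with alum and then breathed OVA aerosol, a standard model of allergic airway disease (AAD). All lungs were collected after a methacholine lung function test. The labels give no dam or litter for a library, so p-values measure the spread between offspring, some of which may share a dam.

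Goblet cells are the mucus-secreting cells of the airway surface. In the mouse airway they are scarce at rest and arise largely from club cells when IL-4 or IL-13 acts through STAT6. Spdef and Foxa3 are transcription factors that drive the goblet fate, and Foxa2 is a related factor known to restrain it. Muc5ac and Muc5b are the gel-forming mucins, which are folded in the endoplasmic reticulum with the help of Agr2 and carry sugar branches added by enzymes such as Gcnt3. Clca1, Fcgbp and Tff2 are secreted together with the mucins.

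Among the members, the promoters of Spdef and Foxa3 carried the only matches to the letter patterns searched, and they are shown for that reason. The promoters of Foxa2, the other regulator, held no match. The RefSeq table for build GRCm38.p6 held promoters of 5 members (Agr2, Spdef, Foxa3, Fcgbp and, from 3 starts, Foxa2), each running from 250 bases before to 50 bases after a start. Both strands were searched for TTCNNNNGAA (STAT6; 6.95% of all 32851 promoters hold it), TGTTTAC (FOXA; 3.65%), TATTTAC (FOXA; 3.04%), CGGATG (SPDEF; 6.00%) and the NF-kB consensus (8.46%). The Spdef promoter held TATTTAC on the reverse strand, 47 bases before the start, and the Foxa3 promoter held 2 places that read as the NF-kB consensus on both strands. The 250 bases before each start are given 5′ to 3′ on the gene's own strand, the minus strand in both, at chr17:27728952-27729201 for Spdef and chr7:19023540-19023789 for Foxa3, with the matches in capitals.
Spdef: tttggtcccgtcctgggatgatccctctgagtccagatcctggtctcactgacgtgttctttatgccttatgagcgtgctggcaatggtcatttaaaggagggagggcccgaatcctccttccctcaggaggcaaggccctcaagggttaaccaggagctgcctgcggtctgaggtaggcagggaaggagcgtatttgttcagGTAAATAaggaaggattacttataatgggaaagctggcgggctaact
Foxa3: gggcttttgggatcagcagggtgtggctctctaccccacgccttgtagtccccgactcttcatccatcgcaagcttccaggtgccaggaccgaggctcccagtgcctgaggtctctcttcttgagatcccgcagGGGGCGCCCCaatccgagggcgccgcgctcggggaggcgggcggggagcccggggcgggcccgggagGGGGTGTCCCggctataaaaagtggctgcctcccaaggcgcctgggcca
A match of letters is a description of these windows and not a binding site.

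In GENCODE M21 (GRCm38) 4 of the 10 genes lie on chromosome 7 (Foxa3, Fcgbp, Muc5ac and Muc5b). Muc5ac (chr7:141788972-141819231, plus strand) ends 19838 bases before Muc5b (chr7:141839070-141873084, plus strand) begins. Tff2 (chr17:31141049-31144282, minus strand) lies 17112 bases from Tff1, a trefoil gene that is not among the 10. No other annotated gene overlapped any of the 10.

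The libraries held between 2298645 (Sham-OVA replicate 3) and 17393579 reads on genes. The OVA libraries were shallower than the unchallenged ones, with medians of 10758335 reads in Sham-OVA and 8498112 in PM-OVA against 15009979 in Sham and 15028212 in PM. Values are RPM, the reads of a gene scaled to the reads of its library. Sham replicate 1 went against the label: it held 936 reads of the Y-linked gene Eif2s3y and 5 of Xist, whereas Eif2s3y had 0 reads in the other 22 libraries. PM replicate 1 and Sham replicate 6, both unchallenged, stood apart in Clca1, and values without these libraries are given beside results that they moved.

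OVA challenge raised the mucus programme in offspring of both maternal groups. At an adjusted p under 0.05 (limma on log2(RPM + 0.5)), 10 of 10 members were higher in Sham-OVA than in Sham and 10 of 10 in PM-OVA than in PM, where 20.6% and 20.1% of all genes tested were called higher and 47.5% and 45.2% lower. The members had median log2 fold changes of 3.45 and 3.75, against medians of -0.48 and -0.43 over all genes tested. Agr2, Foxa3, Tff2 and Gcnt3 passed the filter on low values only through the OVA libraries. Their calls and their lack of overlap therefore describe the rise that brought them into the test and are not separate support for it. TMM scaling brought those 2 medians of all genes to -0.09 and -0.04, moved the share of higher genes among those called from 30.2% to 47.3% and from 30.8% to 49.3%, and left all 10 members called higher in each cohort. In bulk lung, a larger number of goblet cells and more mucus RNA per cell cannot be told apart.

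**Figure D1:**
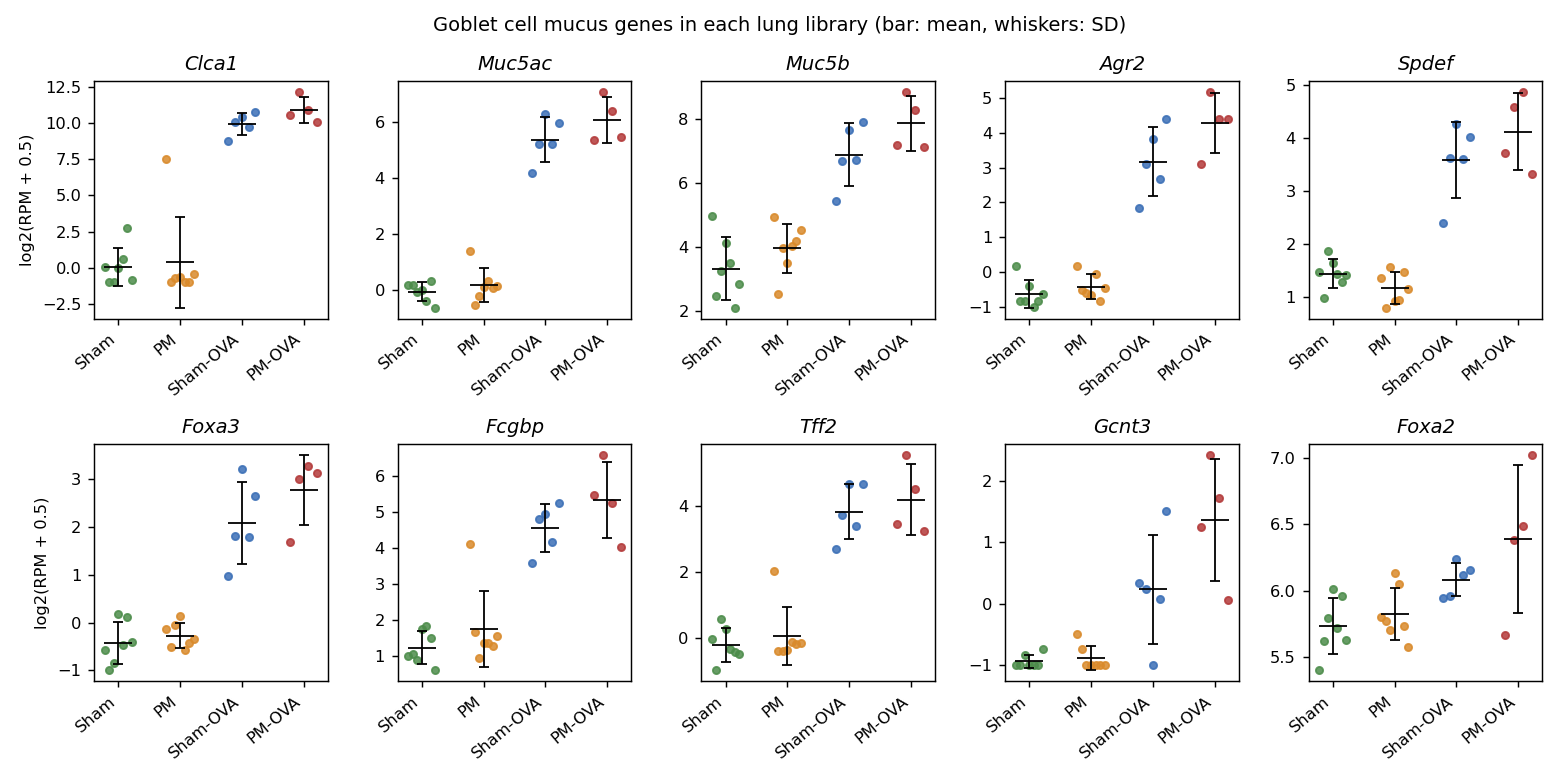
Level of each of the 10 genes, as log2(RPM + 0.5), in every library of the 4 groups, where each point is 1 library, the bar the mean and the whiskers the SD. The OVA points of Clca1, Muc5ac, Muc5b, Agr2, Spdef, Foxa3 and Tff2 all sit above the saline points of the same maternal group, while those of Foxa2 overlap them.

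The transcription factors came apart. Spdef ranged from 1.46 to 3.13 RPM in Sham (median 2.17) and from 1.23 to 2.44 RPM in PM (median 1.71). The 5 Sham-OVA libraries (replicates 1 to 5) held 4.73, 11.8, 18.6, 11.7 and 15.6 RPM, and the 4 PM-OVA libraries 12.6, 23.5, 28.8 and 9.44 RPM. No OVA library overlapped the saline libraries of its cohort. Spdef rose by a log2 fold change of 2.15 ± 0.29 (SE; limma adjusted p = 1.42e-05) in Sham-OVA and 2.95 ± 0.29 (limma adjusted p = 1.54e-05) in PM-OVA.

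Foxa3 was near the limit of detection without challenge. It ranged from 0 to 0.634 RPM in Sham (median 0.223, at most 10 reads) and from 0.176 to 0.593 RPM in PM (median 0.285, at most 9 reads). With challenge it was 1.46, 3.01, 8.70, 2.95 and 5.70 RPM in the Sham-OVA libraries and 2.69, 7.5, 9.16 and 8.17 RPM in the PM-OVA libraries, so that the groups did not overlap in either cohort. The log2 fold changes were 2.51 ± 0.34 (SE; limma adjusted p = 1.77e-05) and 3.04 ± 0.29 (limma adjusted p = 1.05e-05).

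Foxa2 was the most abundant of the 3 factors before and after challenge, and it had the smallest fold change. Sham libraries held 41.7 to 64.0 RPM (median 52.3) and PM libraries 47.2 to 69.5 RPM (median 54.1). The Sham-OVA values were 61.2, 61.7, 74.9, 69.0 and 70.8 RPM, and the PM-OVA values 50.4, 82.8, 89.0 and 130 RPM. The groups overlapped in both cohorts, and PM-OVA replicate 1 lay below the PM median. Foxa2 was 0.35 ± 0.13 (SE; limma adjusted p = 0.0301) higher in Sham-OVA on the log2 scale and 0.57 ± 0.21 (limma adjusted p = 0.0312) higher in PM-OVA. Count models and scaling on the bulk of genes gave more, up to 0.83 in Sham-OVA (edgeR, adjusted p = 0.000322) and 1.12 in PM-OVA (DESeq2, adjusted p = 0.000484), with TMM scaling at 0.80 and 1.03 (limma adjusted p = 0.000480 and 0.00638). The limma calls on RPM were weak: without Sham replicate 1, the library that went against its label, the difference was 0.29 (adjusted p = 0.0579), and without PM-OVA replicate 4, which held the highest value, it was 0.35 (adjusted p = 0.122). Leaving out any 1 of Sham replicates 1, 2 and 7 and Sham-OVA replicates 4 and 5 ended the limma call (adjusted p up to 0.0631), as did any 1 of PM replicates 2, 3, 6 and 7 and PM-OVA replicates 2, 3 and 4 (adjusted p up to 0.122).

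Foxa1, the third gene of this factor family and not one of the 10, fell. It went from a mean of 46.3 ± 5.03 RPM (SD, n = 7) in Sham to 9.78 ± 5.65 RPM (SD, n = 5) in Sham-OVA, and from 47.1 ± 3.96 (SD, n = 7) in PM to 14.3 ± 10.1 RPM (SD, n = 4) in PM-OVA. The log2 fold changes were -2.51 (limma adjusted p = 9.77e-05) and -2.0 (limma adjusted p = 0.000573). In limma on RPM the 3 FOXA genes therefore differed in direction after challenge. Foxa3 rose, Foxa2 rose by less and with weak calls, and Foxa1 fell.

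Both gel-forming mucins rose, Muc5ac by more. Muc5ac was detected in every unchallenged library, at 0.151 to 0.755 RPM in Sham (median 0.507, 3 to 13 reads) and 0.205 to 2.13 RPM in PM (median 0.593, 4 to 31 reads). In Sham-OVA it reached 17.7, 36.7, 77.4, 36.9 and 62.5 RPM and in PM-OVA 40.4, 135, 83.8 and 43.8 RPM. The OVA libraries of both cohorts were far above every saline library. The log2 fold changes were 5.42 ± 0.32 (SE; limma adjusted p = 9.79e-09) and 5.88 ± 0.38 (limma adjusted p = 6.64e-07).

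Muc5b, the mucin that lines the airway at rest, was already present without challenge. It ranged from 3.78 to 30.6 RPM in Sham (median 9.09) and from 5.32 to 30.3 RPM in PM (median 16). The Sham-OVA libraries held 43.1, 103, 204, 104 and 242 RPM and the PM-OVA libraries 145, 463, 313 and 140 RPM. The groups did not overlap, although the lowest Sham-OVA library stood close to the highest Sham library, which was replicate 1. Muc5b rose by 3.57 ± 0.49 (SE; limma adjusted p = 1.75e-05) in Sham-OVA, on the log2 scale, and 3.91 ± 0.43 (limma adjusted p = 3.16e-05) in PM-OVA. Without Sham replicate 1 the Sham-OVA value for Muc5b was 3.84 (limma adjusted p = 8.54e-06).

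Because the mucins rose unequally, the ratio of Muc5b to Muc5ac was computed in each library per kb of the longest transcript, a measure chosen after the values were seen. The Sham ratios had a median of 24.0 and a range of 3.59 to 34.6, and the PM ratios a median of 18.7 and a range of 10.2 to 29.7. In the 5 Sham-OVA libraries it was 1.75, 2.02, 1.90, 2.03 and 2.78, and in the 4 PM-OVA libraries 2.58, 2.47, 2.68 and 2.30. Muc5b was thus above Muc5ac per kb in all 23 libraries, and the OVA libraries lay in a narrow band below every saline library. On the log2 scale the ratio differed by -2.90 between Sham-OVA and Sham (two-sided exact permutation p = 0.00253, adjusted over 4 comparisons 0.00606) and by -2.86 between PM-OVA and PM (exact permutation p = 0.00303, the smallest this design allows, adjusted 0.00606). PM and Sham differed by 0.23 (exact permutation p = 0.665, adjusted 0.665) and PM-OVA and Sham-OVA by 0.28 (exact permutation p = 0.0873, adjusted 0.116). The saline ratios rest on 3 to 31 reads of Muc5ac and are imprecise.

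**Figure D2:**
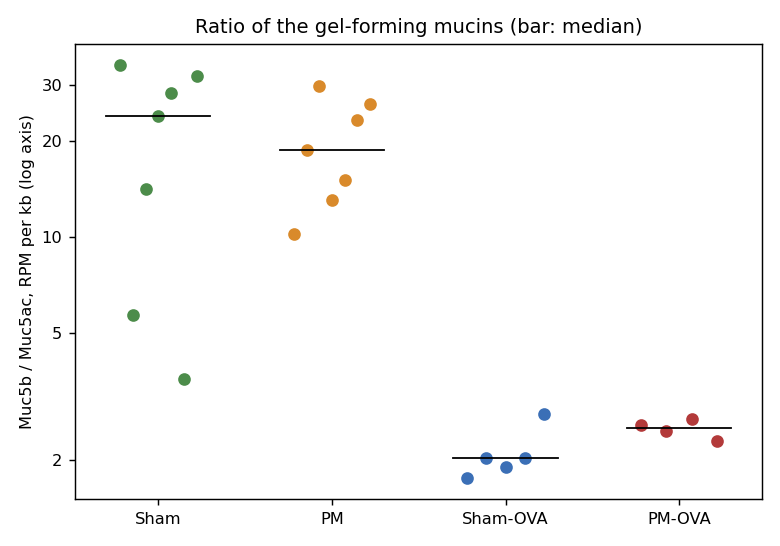
Ratio of Muc5b to Muc5ac in RPM per kb of transcript (log axis) for every library of the 4 groups, with the bar at the group median. The 9 OVA libraries lie between 1.75 and 2.78 and the 14 saline libraries between 3.59 and 34.6.

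Of the genes that process the mucins, Agr2 rose strongly and Gcnt3 appeared at a low level. Agr2, a disulfide isomerase needed for mucin folding, was at 0 to 0.635 RPM in Sham (median 0.0633) and 0.0611 to 0.619 RPM in PM (median 0.205). In Sham-OVA it was 3.06, 8.05, 13.7, 5.90 and 20.3 RPM and in PM-OVA 8.13, 35.6, 20.6 and 20.7 RPM. No OVA library overlapped the saline libraries. The log2 fold changes were 3.78 ± 0.37 (SE; limma adjusted p = 8.85e-07) and 4.69 ± 0.33 (limma adjusted p = 1.15e-06).

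Gcnt3, which adds core branches to mucin O-glycans, had 0 reads in 10 of the 14 saline libraries and at most 3 in the others. The Sham-OVA libraries held 0.764, 0.677, 0, 0.558 and 2.34 RPM (11, 9, 0, 7 and 32 reads) and the PM-OVA libraries 1.88, 4.87, 2.79 and 0.545 RPM (28, 63, 21 and 3 reads). Replicate 3 of Sham-OVA, with no read, was the shallowest library, and it was the library that made Gcnt3 overlap with Sham. The log2 fold changes were 1.172 ± 0.30 (SE; limma adjusted p = 0.00337) and 2.25 ± 0.34 (limma adjusted p = 0.000200). The pseudocount of 0.5 RPM understates the change of so low a gene: edgeR on the recovered reads gave 5.22 (adjusted p = 2.36e-05) and 6.00 (adjusted p = 5.08e-05).

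Among the secreted proteins Clca1 dominated. Clca1, a metalloprotease of mucus and a marker of goblet cells exposed to IL-13, ranged from 0 to 6.16 RPM in Sham (median 0.507) and from 0 to 178 RPM in PM (median 0.104). The Sham-OVA libraries held 423, 1082, 1338, 828 and 1755 RPM and in PM-OVA 1510.1, 4545, 1893 and 1063 RPM. The OVA libraries of each cohort were all above its saline libraries, PM replicate 1 included. The log2 fold change was 9.86 ± 0.56 (SE; limma adjusted p = 8.33e-09) in Sham-OVA and 10.54 ± 1.38 (limma adjusted p = 9.05e-05) in PM-OVA. Without PM replicate 1 the PM-OVA value was 11.72 ± 0.33 (limma adjusted p = 4.15e-09), and without Sham replicate 6 the Sham-OVA value was 10.31 ± 0.38 (limma adjusted p = 5.39e-10). edgeR, which averages reads rather than logs, gave 6.83 in PM-OVA with all libraries (adjusted p = 0.00958).

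Fcgbp, a large protein bound to the mucin gel, was at 1.00 to 3.07 RPM in Sham (median 1.58) and 1.40 to 16.8 RPM in PM (median 2.05). In Sham-OVA it was 11.5, 27.6, 30.4, 17.6 and 37.5 RPM and in PM-OVA 43.8, 96.6, 37.3 and 15.8 RPM. Only PM replicate 1 among the saline libraries reached the OVA range. Fcgbp rose by 3.33 ± 0.31 (SE; limma adjusted p = 5.22e-07) and 3.59 ± 0.57 (limma adjusted p = 0.000271) on the log2 scale, the latter being 3.98 without PM replicate 1 (limma adjusted p = 3.44e-05).

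Tff2, a trefoil peptide that binds mucin, was at 0 to 0.984 RPM in Sham (median 0.279) and 0.256 to 3.58 RPM in PM (median 0.367). In Sham-OVA it was 5.98, 12.7, 24.5, 9.96 and 24.5 RPM and in PM-OVA 10.5, 46.3, 22 and 8.90 RPM. The groups did not overlap. The log2 fold changes were 4.04 ± 0.36 (SE; limma adjusted p = 3.58e-07) and 4.13 ± 0.52 (limma adjusted p = 6.93e-05), the latter 4.46 without PM replicate 1. Apart from Foxa2, every member kept its call without Sham replicate 1, without Sham replicate 6 and without PM replicate 1.

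**Figure D3:**
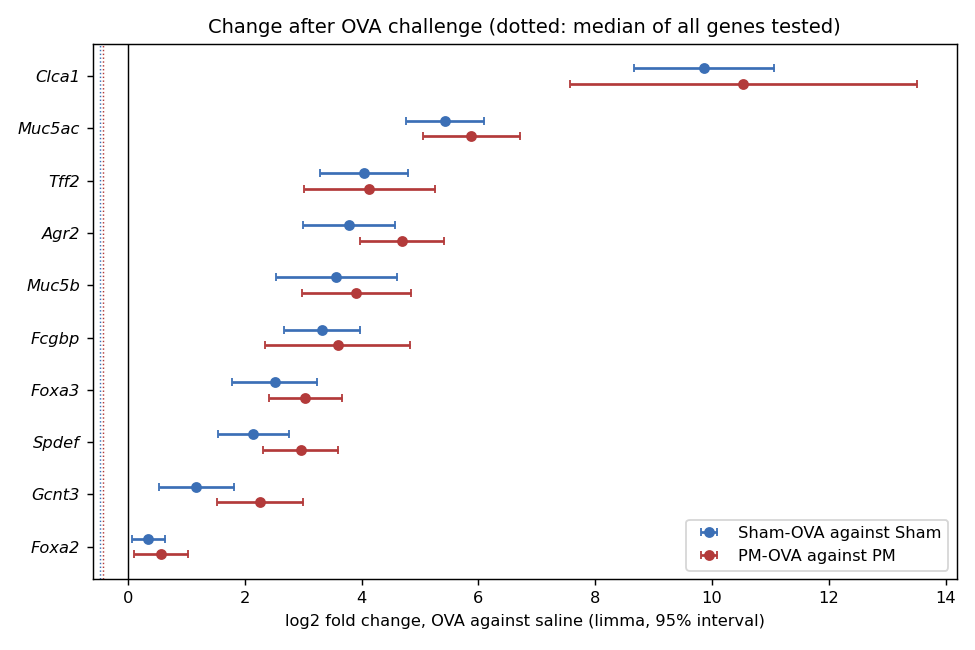
Log2 fold change of the 10 genes after OVA challenge with its 95% interval from limma, for Sham-OVA against Sham (blue) and PM-OVA against PM (red), with dotted lines at the medians of all genes tested (-0.48 and -0.43). Clca1 changed most (9.86 and 10.54) and Foxa2 least (0.35 and 0.57), and the intervals of the cohorts overlap for every gene.

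The study set a stricter threshold (adjusted p under 1e-06 with a log2 fold change beyond 1 in size) for DESeq2 on raw counts. Applied here to limma on log2(RPM + 0.5), it was passed by 5 members in Sham-OVA (Clca1, Muc5ac, Agr2, Fcgbp and Tff2), where 1.98% of all genes were called higher. In PM-OVA 1 member passed (Muc5ac), where 0.262% of all genes were. DESeq2 on recovered reads called 2348 and 1767 genes higher at this threshold, against 333 and 44 with limma. Over the alternatives the members passing ran from 0 to 9 and from 0 to 8, so 5 against 1 does not measure a difference between the cohorts. The OVA and saline libraries did not overlap, with OVA higher, for 8 members in Sham-OVA (13.2% of all genes) and for 8 in PM-OVA (13.3%). The exceptions were Gcnt3 and Foxa2 in Sham-OVA and Fcgbp and Foxa2 in PM-OVA.

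Per kb of transcript the order of the 10 genes in whole lung changed with challenge. Which cells held the RNA of each gene was not tested. In unchallenged lung Foxa2 had the highest level of the 10 genes in both groups, at 25.0 ± 3.65 RPM per kb (SD, n = 7) in Sham and 26.6 ± 3.77 (SD, n = 7) in PM. In Sham all other members averaged 1.166 RPM per kb or less, with Spdef, Muc5b and Tff2 next and closer to one another than the SD of Muc5b. In PM the mean of Clca1 came second, at 6.97 ± 18.4 RPM per kb (SD, n = 7), a mean that rests on PM replicate 1. After OVA Clca1 came first, at 297 ± 138 RPM per kb (SD, n = 5) in Sham-OVA and 616 ± 428 (SD, n = 4) in PM-OVA. Foxa2 (31.7 ± 2.79 and 41.3 ± 15.3 RPM per kb) and Tff2 (26.6 ± 14.6 and 37.5 ± 29.6) followed without separating from each other, and Gcnt3 was last in every group, at 0.202 ± 0.203 RPM per kb in Sham-OVA and 0.586 ± 0.422 in PM-OVA. Clca1 made up 69.1% to 78.5% of the summed RPM per kb of the 10 genes in Sham-OVA and 70.2% to 84.4% in PM-OVA.

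Within the challenged groups many members were highest or lowest in the same libraries. Sham-OVA replicate 1 was the lowest library for 9 of 10 members, all but Gcnt3, and replicates 3 and 5 were the highest for 5 members each. In PM-OVA, replicate 2 was highest for 7 members and replicates 4 and 1 lowest for 6 and 4. Foxa2 went the other way, with its highest PM-OVA value (130 RPM) in replicate 4. The share of all genes tested that was highest or lowest in each OVA library was not computed. These counts are therefore descriptions and not a trait of the members. Scgb1a1, the defining club cell product, was also lowest in Sham-OVA replicate 1 (3404 RPM) and in PM-OVA replicate 1 (5419 RPM), and highest in Sham-OVA replicate 5 (26224 RPM) and PM-OVA replicate 2 (31944 RPM). The summed level of the 10 club cell markers ranged from 4971 to 31209 RPM in Sham-OVA and from 7728 to 39417 RPM in PM-OVA, against 17119 to 42327 RPM in Sham and 17695 to 28739 RPM in PM. The part of airway content in the spread of the members was not tested.

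Maternal PM2.5 without challenge was compared in PM against Sham. None of the 10 members was called by limma at an adjusted p under 0.05, nor was any gene tested (0%), and 0 of 10 had an unadjusted p under 0.05 (4.35% of all genes). DESeq2 and edgeR called none of the 10 either. The log2 differences ran from -0.27 (Spdef, 95% interval -0.60 to 0.07) to 0.63 (Muc5b, -0.25 to 1.51), with smallest adjusted p = 0.898. For Foxa2 the interval was -0.13 to 0.31, and for Clca1 it spanned -2.07 to 2.68 because of PM replicate 1. Without that library the Clca1 difference changed sign, from 0.30 to -0.88. Without Sham replicate 1 the Muc5b difference was 0.91 (limma adjusted p = 0.867).

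PM replicate 1 held the mucus programme in part, with no challenge on its label. It had the highest value of the 14 unchallenged libraries for 5 of 10 members, Clca1, Muc5ac, Fcgbp, Tff2 and Gcnt3, while it was highest for 5.75% of all genes tested. Its Clca1 level was 178 RPM (2587 reads) where the other 13 had a median of 0.104 and a maximum of 6.16 RPM, the largest excess of any gene tested. Fcgbp was 16.8 RPM against at most 3.07, Tff2 3.58 RPM against at most 0.984 and Muc5ac 2.13 RPM against at most 0.763. Gcnt3 was highest on 3 reads only (0.206 RPM against at most 0.102), near the limit of detection. The library was picked out by its Clca1, so the count of 5 members is a description. Spdef (2.06 RPM, others 1.23 to 3.13), Foxa3 (0.413 RPM, others 0 to 0.634), Agr2 (0.619 RPM, others 0 to 0.635), Foxa2 (55.3 RPM, others 41.7 to 69.5) and Muc5b (30.3 RPM, others 3.78 to 30.6) lay within the range of the rest.

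Genes outside the 10 with the largest excess in PM replicate 1 were Bpifa1, Bpifb1, Reg3g, Fer1l6 and Nppa. Bpifa1, an airway surface protein, stood at 78.6 RPM (others at most 27.6), Bpifb1, a related protein, at 13.8 RPM (at most 3.43) and Reg3g, an antimicrobial lectin, at 12.2 RPM (at most 2.03). Fer1l6 was at 5.92 RPM (at most 0.455), whereas Nppa, an atrial peptide gene, at 6.40 RPM was below the highest of the others (15). Il13 and Tff1 had 0 reads in this library, and the summed club cell markers (22030 RPM) were within the PM range.

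Sham replicate 6 stood above the rest of its group in Clca1, at 6.16 RPM (106 reads), and had the lowest Muc5b of the 14 unchallenged libraries (3.78 RPM). Its largest excesses outside the 10 genes were in Rnase2a (2.96 RPM, others at most 0.329), Retnla (94.1 RPM, others at most 133), Jchain (145 RPM, others at most 54.8), Cyp26b1 (74.1 RPM, others at most 116) and Ngp (15.1 RPM, others at most 7.37). Retnla encodes a resistin-like protein of type 2 responses, Jchain the joining chain of secreted antibodies and Ngp a neutrophil granule protein.

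**Figure D4:**
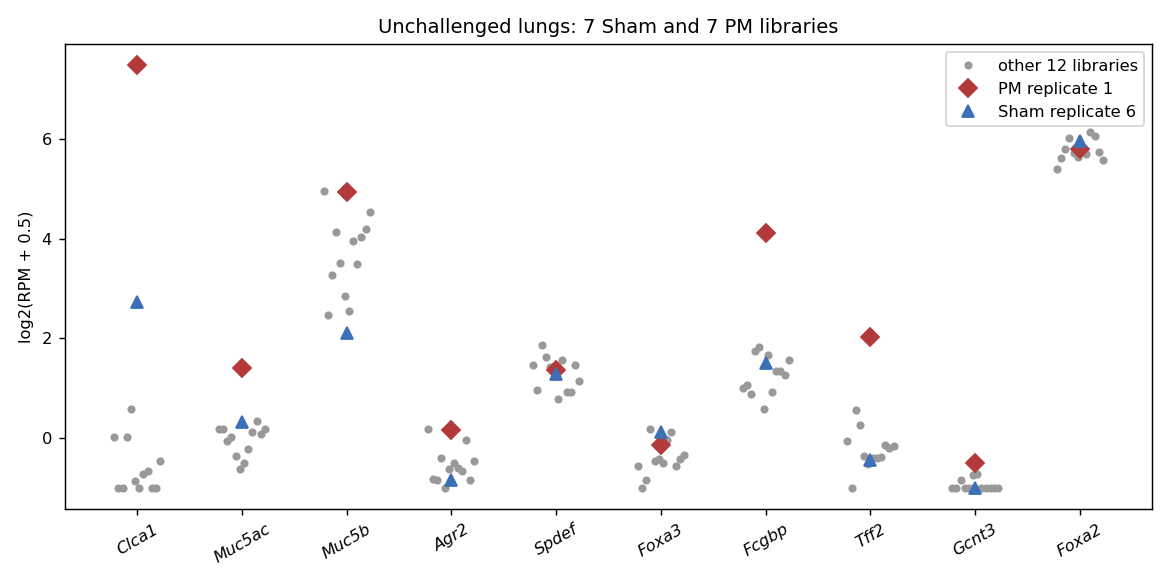
Level of the 10 genes as log2(RPM + 0.5) in the 14 unchallenged libraries, with PM replicate 1 as red diamonds, Sham replicate 6 as blue triangles and the other 12 as grey points. PM replicate 1 lies far above the rest in Clca1 (178 RPM), Fcgbp (16.8 RPM) and Tff2 (3.58 RPM) and among them in Spdef, Foxa3 and Foxa2.

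Maternal PM2.5 under challenge was compared in PM-OVA against Sham-OVA. The mean of every member was higher in PM-OVA (10 of 10, against 52.3% of all genes), with log2 differences from 0.31 (Foxa2) to 1.13 (Gcnt3) and a median of 0.74. None was called by limma at an adjusted p under 0.05 (0% of all genes), and 0 of 10 had an unadjusted p under 0.05 (1.86% of all genes), the smallest being 0.0732 for Gcnt3. DESeq2 and edgeR also called none of the 10. The 95% intervals all included 0 and were wide, from -0.13 to 2.09 for Clca1, -0.15 to 2.37 for Agr2, -0.37 to 1.77 for Muc5ac and -0.23 to 2.18 for Muc5b. Many members were highest or lowest in the same libraries, so that their shared direction does not count as 10 separate observations. Without PM-OVA replicate 2 the median difference was 0.48 and 9 of 10 were higher, and without Sham-OVA replicate 1 it was 0.47 with 10 of 10 higher. Some marker lists of other cells were also higher on average in PM-OVA, with median log2 differences of 0.94 over the 9 multiciliated cell markers and 0.49 over the 10 club cell markers. Others lay near the median of all genes tested (0.013), at 0.12 for airway keratin and epithelial markers, -0.004 for gland and serous markers and 0.14 for stomach markers. The part of these cells in the values of the members was not tested.

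The test of whether the response to OVA depended on maternal exposure, the interaction in the fit of all 4 groups, called none of the 10 at an adjusted p under 0.05 (0% of all genes). One member, Gcnt3, had an unadjusted p under 0.05 (5.08% of all genes), with a difference of log2 fold changes of 1.08 (95% interval 0.11 to 2.06) and a limma adjusted p = 0.891. For Spdef the difference was 0.81 (-0.06 to 1.67), for Muc5ac 0.45 (-0.60 to 1.51) and for Clca1 0.68 (-2.48 to 3.83). Without PM replicate 1 the Clca1 value was 1.86 (limma adjusted p = 0.823), and without Sham replicate 6 it was 0.23. Both cohorts' own values for the members are those given above. With array weights the interaction called 4616 of the 16795 genes, 651 higher and 3965 lower, and again 0 of the 10, where Foxa3 had the smallest adjusted p (0.0767).

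The other genes of mucus biology, in 8 lists compiled by hand, did not all move with the programme. Each list is read against the 20.6% higher and 47.5% lower of all genes in Sham-OVA and the 20.1% and 45.2% in PM-OVA, and counts near these shares are not a result about the list. Counts with TMM scaling have another base. Of the 16795 genes, TMM scaling called 5293 higher and 5905 lower in Sham-OVA, and 5346 higher and 5498 lower in PM-OVA. List counts near those shares are likewise not a result about the list. In the list of other secreted mucus proteins the tested genes mostly did. Of its 15 genes with values only 7 passed the filter, and the untested ones stayed too low for it. Of those 7, 6 were higher in Sham-OVA and 6 in PM-OVA, none lower (TMM scaling 6 and 7 higher, none lower). Their median log2 fold changes were 3.59 and 3.98. Tff1 passed the filter only through the OVA libraries, so its call is not separate support. Bpifb1 rose by 6.98 (limma adjusted p = 5.98e-07) and 6.70 (limma adjusted p = 1.74e-05) and the chitinase Chia1 by 3.90 and 3.98. Tff1, a trefoil peptide, had 0 reads in all 14 unchallenged libraries and 1.81 to 15.2 RPM in Sham-OVA and 4.23 to 29.9 RPM in PM-OVA. The group means (7.08 and 18.3 RPM) were at least 286-fold and at least 728-fold the level that 3 reads over the saline group would give. Of the Clca family, Clca3a2, Clca4a and Clca4b had 0 reads in all 23 libraries, and Clca2 and Clca3a1 stayed at or below 1.23 RPM in every library.

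Among type 2 signals upstream, 3 of 9 tested genes were higher and 3 lower in Sham-OVA, and 4 higher and 3 lower in PM-OVA. Il13 had 0 reads in all 7 Sham libraries and 0 to 4.24 RPM in Sham-OVA, at least 73.5-fold higher on average than 3 reads over the Sham group, and its log2 fold change in PM-OVA was 1.14 (limma adjusted p = 0.00366). Socs1, a feedback inhibitor of cytokine signalling, rose by 2.96 and 2.51. The receptor gene Il13ra1 (-1.06 and -1.07) and Tslp (-1.36 and -0.61), an epithelial alarmin, fell. With TMM scaling the list had 5 higher and 2 lower in each cohort.

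Of the 16 airway secretory transcription factors and Notch genes, 4 were higher and 10 lower in Sham-OVA, and 3 higher and 7 lower in PM-OVA. Sox9 rose by 3.5 (limma adjusted p = 1.77e-08) and 2.82 (limma adjusted p = 5.23e-06), and Elf3, an epithelial ETS factor like Spdef, by 1.93 and 1.95. Foxa1 fell as given above, and Notch1, a receptor that favours secretory over ciliated fate, fell (-1.56 and -1.25). With TMM scaling the counts were 5 higher and 5 lower in Sham-OVA and 6 and 5 in PM-OVA.

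In the EGF receptor family and its ligands, 0 of 10 genes were higher and 7 lower in Sham-OVA, and 1 was higher and 7 lower in PM-OVA. The ligand genes Btc (-2.46 and -1.68) and Nrg1 (-2.17 and -1.86) had the lowest log2 fold changes called. TMM scaling left 1 higher and 4 lower in Sham-OVA and 1 and 5 in PM-OVA. Of the other mucins, 5 were tested, and membrane-bound Muc1 rose by 1.28 and 1.33 while Muc16 (-1.59 and -2.24) fell. The list had 1 higher and 2 lower in Sham-OVA, the second being Muc4 (-0.65, limma adjusted p = 0.0224), and 1 higher and 1 lower in PM-OVA, with 1 and 1 in each cohort under TMM scaling.

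The enzymes of mucin O-glycosylation, 23 tested, had 5 higher and 10 lower in Sham-OVA and 4 higher and 11 lower in PM-OVA. Fut1, a fucosyltransferase, rose by 2.92 and 2.72 and St3gal4, a sialyltransferase, by 1.09 and 1.21, whereas St6galnac2 (-3.19 and -2.65) and Gcnt2 (-1.54 and -1.56), a paralogue of Gcnt3, fell. With TMM scaling the counts were 8 higher and 6 lower, and 8 and 8. For mucin folding and granule exocytosis, 20 tested, 7 were higher and 6 lower in Sham-OVA and 7 and 8 in PM-OVA. Pdia4, an endoplasmic reticulum isomerase, rose by 1.93 and 1.26 and Vamp8, a granule fusion protein, by 1.51 and 1.55, and Rab27b (-1.84 and -1.62) and Unc13b (-1.39 and -1.25) fell. TMM scaling gave 12 higher and 4 lower in Sham-OVA and 9 and 3 in PM-OVA.

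Of 11 tested genes of ion transport for mucus hydration, 3 were higher and 6 lower in Sham-OVA and 3 higher and 8 lower in PM-OVA. Slc26a4 (pendrin, an anion exchanger) rose by 6.35 (limma adjusted p = 7.70e-10) and 5.68 (limma adjusted p = 3.13e-06) on the log2 scale, from at most 5.81 RPM in Sham to at least 154 RPM in Sham-OVA. The potassium channel gene Kcnn4 rose by 3.61 and 3.39, while the chloride channel gene Ano1 (-1.79 and -1.60) and Slc26a9 (-1.51 and -1.5) fell. TMM scaling gave 3 higher and 4 lower in Sham-OVA and 3 and 3 in PM-OVA.

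Markers of other cells that could share these genes were measured in the same way. Of 10 club cell markers, 4 were higher and 5 lower in Sham-OVA and 4 and 4 in PM-OVA: Scgb3a1, a secretoglobin also made by mucous cells, rose by 5.26 and 5.14 and Nupr1 by 0.99 and 0.87, and Cyp2f2 (-2.34 and -1.33) and Scgb3a2 (-2.02 and -1.24) fell. Scgb1a1 was not called, at -0.96 (limma adjusted p = 0.0628) and -0.03 (limma adjusted p = 0.961). TMM scaling gave 4 higher and 4 lower club cell markers in Sham-OVA and 4 and 3 in PM-OVA. Of 9 multiciliated cell markers, 0 were higher and 4 lower in Sham-OVA and 4 higher and 1 lower in PM-OVA. The largest falls called in Sham-OVA were Hydin at -2.86 and Ccdc39 at -2.06 (limma adjusted p = 3.06e-05), with -1.73 and -0.50 (limma adjusted p = 0.160) in PM-OVA. The 4 higher in PM-OVA were Rsph1 (1.32), Tekt1 (1.16), Foxj1 (0.97) and Dnah9 (0.80). In Sham-OVA these were at 0.48, 0.07, -0.35 and -0.85. With TMM scaling the multiciliated list had 1 higher and 2 lower in Sham-OVA and 6 and 1 in PM-OVA. Their summed level was 310 to 746 RPM in Sham-OVA, 511 to 1129 RPM in PM-OVA, 520 to 861 RPM in Sham and 456 to 737 RPM in PM, and its part in the values of the members was not tested.

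Of the gland and serous markers 4 of 10 were tested, and Ltf (3.57 and 3.39) and Kcnn4 rose while Lyz1 (-2.32 and -2.49) and Aqp5 (-0.80 and -0.74) fell. The list summed to 312 to 513 RPM in Sham, 358 to 633 in PM, 323 to 387 in Sham-OVA and 323 to 425 in PM-OVA, and 5 or 6 of its 10 genes had no read in a whole group. Tff2, Tff1 and Muc5ac are also made by the stomach. All 3 stomach markers tested were higher in each cohort, among them Tff1 and Gkn3 (2.55 and 2.62), and the list summed to 0.635 to 2.84 RPM in Sham, 0.763 to 2.13 in PM, 12.6 to 26.7 in Sham-OVA and 10.8 to 40.5 in PM-OVA. Of the 9 stomach genes summed, Gkn1, Gkn2 and Atp4b had 0 reads in all 23 libraries. These 3 were picked out after their values were seen, and other genes of the list did have reads. Across the Sham group only 4 of the 9 lacked any read, these 3 and Tff1. Atp4a, Cblif and Muc6 (2 reads) therefore had reads there. PM-OVA had 6 genes without a read, PM 5 and Sham-OVA 4, Muc6 among them each time. Whether stomach tissue was present was not tested. The airway keratin and epithelial markers, 7 tested, had 0 higher and 2 lower in Sham-OVA (Krt18 at -2.10 and Krt8 at -1.31) and 1 higher and 2 lower in PM-OVA (Krt18 at -1.59 and Krt8 at -1.22), and summed to 539 to 724 RPM in Sham, 567 to 936 in PM, 577 to 792 in Sham-OVA and 598 to 910 in PM-OVA. TMM scaling gave 3 higher and 2 lower keratin and epithelial markers in each cohort, 2 and 2 gland markers in Sham-OVA and 2 and 1 in PM-OVA, and 3 and 0 stomach markers in each.

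**Figure D5:**
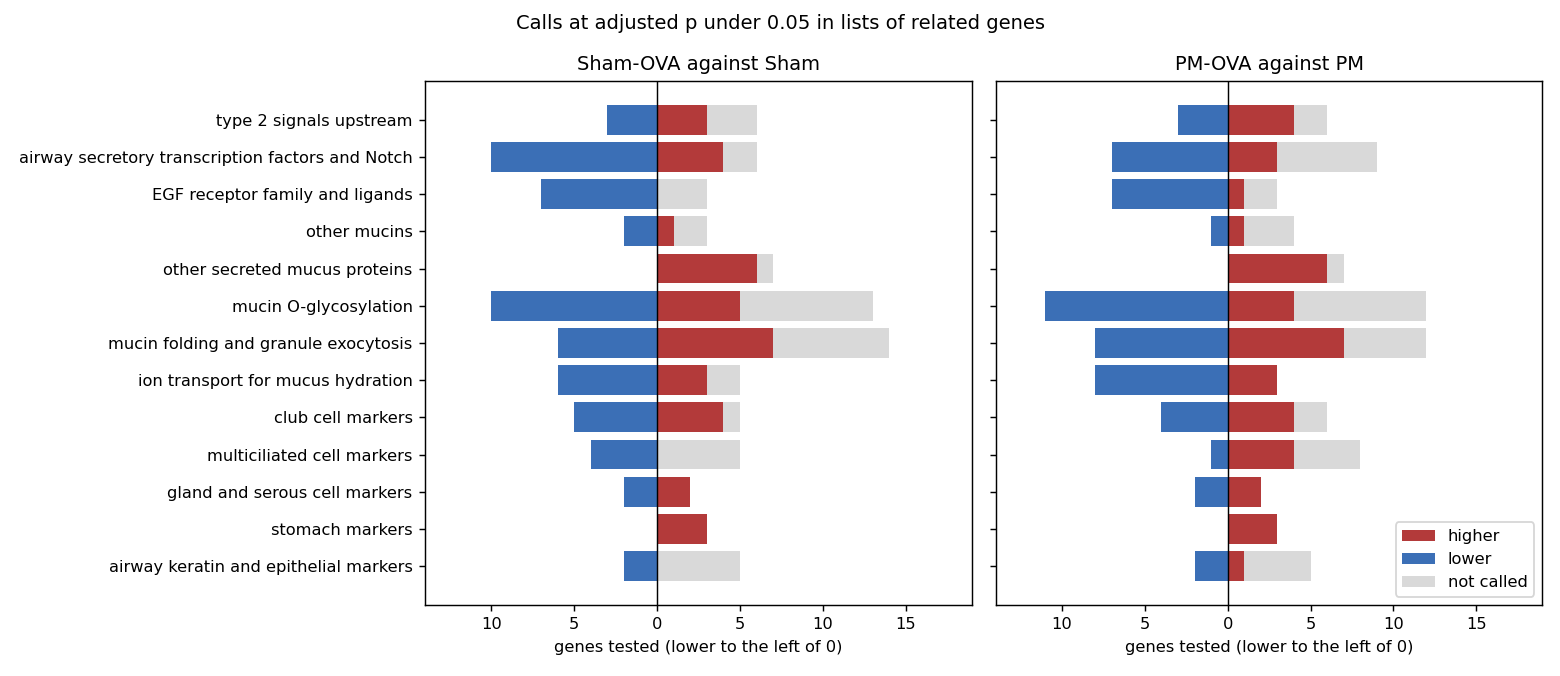
Number of tested genes called higher (red), lower (blue, to the left of 0) or not called (grey) by limma at an adjusted p under 0.05 in each of 13 lists of related genes, for Sham-OVA against Sham and PM-OVA against PM. The other secreted mucus proteins have 6 of 7 tested genes higher and none lower in each cohort, and the EGF receptor family 7 of 10 lower in each. Of all genes tested, 20.6% and 20.1% were higher and 47.5% and 45.2% lower. With TMM scaling the EGF receptor family had 4 and 5 lower.

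In the comparisons of maternal exposure and in the interaction, limma on log2(RPM + 0.5) with all libraries and without array weights called no gene of the 13 lists at an adjusted p under 0.05.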

How the data were processed

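Lung RNA-Seq libraries of 23 offspring were assigned to 4 groups by the maternal exposure and challenge in the labels. Per the methods, Trimmomatic, Bowtie2 (GRCm38) and SeqMonk were used from reads to genes, and the values deposited by the authors in 1 table are RPM. The table is named after RPKM, but at least 99.99% of the values in every library were whole multiples of 1 read (within 0.02 reads), so reads were recovered. One symbol is listed 2 times. The tests had been planned for normalised values and were kept.

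A filter of 0.5 RPM in 4 or more of the 23 libraries left 16795 genes, whose log2(RPM + 0.5) values were fitted with limma 3.58.1 in R 4.3.3 (trend in the variance, Benjamini-Hochberg adjustment over all genes). The pseudocount shrinks the fold changes of low genes. DESeq2 1.42.0 and edgeR 4.0.16 on recovered reads, other pseudocounts, scalings, filters and depths, array weights, replicate blocks and leaving out each library were alternatives. The limma step was tested on simulated data. Depth ranged from 2298645 to 17393579 reads on genes, and intervals of low genes widen with shallow depth.

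The members and the 13 lists were chosen with earlier results of these data known, so counts over them are descriptions. Agr2, Foxa3, Tff2 and Gcnt3 would not have passed the filter on the saline libraries alone. The same held for list genes such as Tff1, Il13 and Fut1. Genes named were the members, the 2 largest rises and 2 largest falls called in each list in Sham-OVA, the 5 largest excesses in each of PM replicate 1 and Sham replicate 6, and sex-linked genes as a check. Other non-member genes (Scgb1a1, the Clca family, Gkn1, Gkn2, Atp4a, Atp4b, Cblif, Muc6, Rsph1, Tekt1, Foxj1, Dnah9) were named after their values were seen.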

Additional observations from a re-analysis of the deposited data

Results flagged for a closer look

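Dixon's criterion was applied to the log2 values of the 10 members in each of the 4 groups, 40 groups of values in all, of which chance would mark about 1 in 20. It marked 5. Clca1 in PM replicate 1 (178 RPM), Fcgbp in PM replicate 1 (16.8 RPM) and Tff2 in PM replicate 1 (3.58 RPM) each stood far above the other PM libraries. Clca1 in Sham replicate 6 (6.16 RPM) stood above the other Sham libraries. Foxa3 in PM-OVA replicate 1 (2.69 RPM) stood below the other PM-OVA libraries, which held 7.5 to 9.16 RPM.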

How the results depend on the processing

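All 10 members stayed higher in both OVA comparisons under every alternative, and all but Foxa2 stayed called at an adjusted p under 0.05. At the study threshold the counts of members called were 5 in Sham-OVA and 1 in PM-OVA, and over the alternatives they ran from 0 to 9 and from 0 to 8. Foxa2 kept its call in 17 of 24 alternatives in Sham-OVA and 13 of 23 in PM-OVA. Replicate numbers, taken from the sample titles, showed no steady pairing of the libraries. Correlations of same-numbered deviations ran from -0.07 to 0.12 in Sham-OVA against Sham and from -0.10 to 0.06 in PM-OVA against PM. They ran from -0.25 to 0.10 in PM against Sham and from -0.31 to 0.62 in PM-OVA against Sham-OVA. Most OVA libraries carry another number in the library name, and pairing by that number was not examined. With a replicate block 9 members were called in each OVA comparison and 0 in each comparison of maternal exposure and in the interaction. Of 1222 counts of called genes in the lists, 46 were over 1.5 times higher and 57 over 1.5 times lower under an alternative.

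No result that reversed was called in any setting. In PM against Sham, Clca1 was -0.0718 with a pseudocount of 0.1, -1.83 with DESeq2 and -0.44 with the 2 libraries of high Clca1 set aside (a choice made after seeing the data), where Tff2 was -0.0976 and Gcnt3 -0.0256, and Muc5ac was -0.35 at one depth. Leaving out 1 library gave ranges of -0.88 to 0.75 for Clca1, -0.0597 to 0.40 for Tff2 and -0.0155 to 0.0832 for Gcnt3, and of -0.0918 to 0.68 for Tff2 in PM-OVA against Sham-OVA. In the interaction, Clca1 was -3.50 with DESeq2 and -3.44 with edgeR, Muc5ac -0.0427 with DESeq2, Fcgbp -0.31 and -0.21, and Tff2 -0.62 and -0.43, and Tff2 was -0.12 with a pseudocount of 0.1. Leaving out 1 library in the interaction gave -0.0188 to 0.60 for Muc5b, -0.16 to 0.70 for Fcgbp and -0.36 to 0.42 for Tff2. The log2 ratio of Muc5b to Muc5ac in PM against Sham ran from -0.12 to 0.43, and in PM-OVA against Sham-OVA it was 0.38 without Sham-OVA replicate 5 (two-sided exact permutation p = 0.0286). The causes were not tested. Depth limits Gcnt3, Clca1, Foxa3, Agr2, Tff2 and Muc5ac in unchallenged lung. With array weights the interaction called 4616 genes, against 0 in the main limma fit. DESeq2 called 2, and limma without Sham-OVA replicate 5 called 6.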
